A study of Mus musculus with 16 samples.

Results

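The 9 anterior genes of the HoxA and HoxB clusters described here are Hoxa2, Hoxa3, Hoxa4, Hoxa5, Hoxa6, Hoxa7, Hoxb2, Hoxb3 and Hoxb4. They were chosen by name and matched by symbol to the Ensembl identifiers of the expression table, which holds 54453 genes, 21872 of them protein-coding, and all 9 were found. The study followed DNA methylation and transcription from a cell population into lines grown from single cells, and total RNA-seq covered 16 immortalised lines of mouse embryonic fibroblasts (MEFs). All lines go back to C57BL/6J embryos (E13.5), and the labels give no engineered allele and no treatment. They were immortalised by serial passaging through crisis, and the paper describes the embryos as siblings, male for MEF-1 and female for MEF-2.

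The lines form 4 groups, namely the parental line MEF-1 (n = 1), 7 clonal lines of MEF-1, the parental line MEF-2 (n = 1) and 7 clonal lines of MEF-2. Each clonal line is 1 clone sorted from its parental line, and each line has 1 library. A difference between MEF-1 and MEF-2 is for this reason a difference between lines of 1 embryo each, in which embryo, sex and the history of immortalisation cannot be told apart, and its p-value measures only the spread between clones. The values are regularised log values (rlog), a log2 measure corrected for library size in which each line is drawn towards the average of the gene. As counts are not among the values, the depth behind them is unknown, and fold changes of genes with few reads are understated.

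Hox genes encode homeodomain transcription factors that tell cells of the embryo where they lie along the body axis. Within a cluster the order of the genes on the chromosome follows the order in which they are switched on and the anterior limit of their expression, so that genes at the anterior end mark the hindbrain, the branchial arches and the neck. Fibroblasts keep part of the Hox pattern of the place they came from, and the chromatin of the clusters is kept on or off by Trithorax and Polycomb proteins.

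The HoxA members lie on the minus strand of chromosome 6 (GRCm38), from Hoxa2 (chr6:52162417-52164831) to Hoxa7 (chr6:52214491-52221854). The HoxB members lie on the plus strand of chromosome 11, from Hoxb4 (chr11:96318267-96321638) through Hoxb3 (chr11:96323326-96347930) to Hoxb2 (chr11:96350525-96354012). RefSeq promoter windows (GRCm38.p6), from 250 bases before to 50 bases after the start of transcription, were matched for 6 of the 9 genes. Hoxa4, Hoxb2 and Hoxb3 had no entry. The windows of Hoxb4 (chr11:96318017-96318316, plus strand), Hoxa5 (chr6:52204538-52204837, minus strand) and Hoxa7 (chr6:52218524-52218823, minus strand) are shown because these are the matched genes with the largest difference between MEF-1 and MEF-2, in either direction, and because the study is about methylation of CpG dinucleotides, which stand in capitals.
Hoxb4: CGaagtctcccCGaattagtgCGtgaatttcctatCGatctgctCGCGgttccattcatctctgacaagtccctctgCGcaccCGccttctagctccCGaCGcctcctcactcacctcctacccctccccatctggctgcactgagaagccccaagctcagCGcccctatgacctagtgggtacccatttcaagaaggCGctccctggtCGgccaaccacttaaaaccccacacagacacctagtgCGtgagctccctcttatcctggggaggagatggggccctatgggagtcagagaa
Hoxa5: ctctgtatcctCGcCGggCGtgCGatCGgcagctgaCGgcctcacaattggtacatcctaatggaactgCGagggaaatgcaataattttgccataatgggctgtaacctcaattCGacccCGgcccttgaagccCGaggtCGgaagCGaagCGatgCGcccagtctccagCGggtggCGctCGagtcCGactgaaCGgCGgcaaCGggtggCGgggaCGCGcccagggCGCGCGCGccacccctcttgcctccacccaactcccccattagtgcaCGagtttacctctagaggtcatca
Hoxa7: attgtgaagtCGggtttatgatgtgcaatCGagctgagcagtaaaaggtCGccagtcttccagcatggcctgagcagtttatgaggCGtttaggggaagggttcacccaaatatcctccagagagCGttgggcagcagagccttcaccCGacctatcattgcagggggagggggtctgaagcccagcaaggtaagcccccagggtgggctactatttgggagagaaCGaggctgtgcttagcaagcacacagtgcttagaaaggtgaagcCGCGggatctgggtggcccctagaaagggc
The Hoxb4 window holds 14 CpGs, that of Hoxa5 29 and that of Hoxa7 9, against a median of 7 over 32851 promoters of the same length. At least as many CpGs were present in 36.3%, 12.9% and 45.8% of these promoters, in the same order. The Hoxa7 window lies inside the gene as annotated, which has 5 transcripts. Its count is thus that of an internal start, not of the outermost promoter. Among the other matched windows, Hoxa6 held 26 CpGs, Hoxa3 20 and Hoxa2 9. The core motif TGACAG of the Meis and Pknox cofactors, searched on both strands, occurred once each in the windows of Hoxa2 and Hoxa3 and in 19.2% of all promoters. A match is a description of the sequence only.

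The HoxB members were lower in the clonal lines of MEF-2 than in those of MEF-1, and 3 of the 6 HoxA members were higher. Hoxb4 differed most, by −3.88 ± 0.21 (log2, SE, n = 7 against 7), and Hoxb3 (−1.68 ± 0.11) and Hoxb2 (−1.32 ± 0.083) followed. Hoxa5 (0.73 ± 0.094), Hoxa7 (0.53 ± 0.097) and Hoxa4 (0.37 ± 0.13) were higher in MEF-2. Hoxa2, Hoxa3 and Hoxa6 did not pass the test. In all, 6 of the 9 genes were called (limma, Benjamini-Hochberg adjusted p under 0.05), where 56.1% of 15285 tested protein-coding genes were called. Of all tested genes, 27.5% were called higher and 28.6% called lower in MEF-2. The count of 6 is near the background and is no result about the 9 genes. A difference of at least 1 on the log2 scale, as in all 3 HoxB members, was called for 12.9% of tested genes. The median absolute difference of tested genes was 0.30. As the lines were measured in bulk, fewer cells with a transcript and less transcript per cell cannot be told apart.

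**Figure D1:**
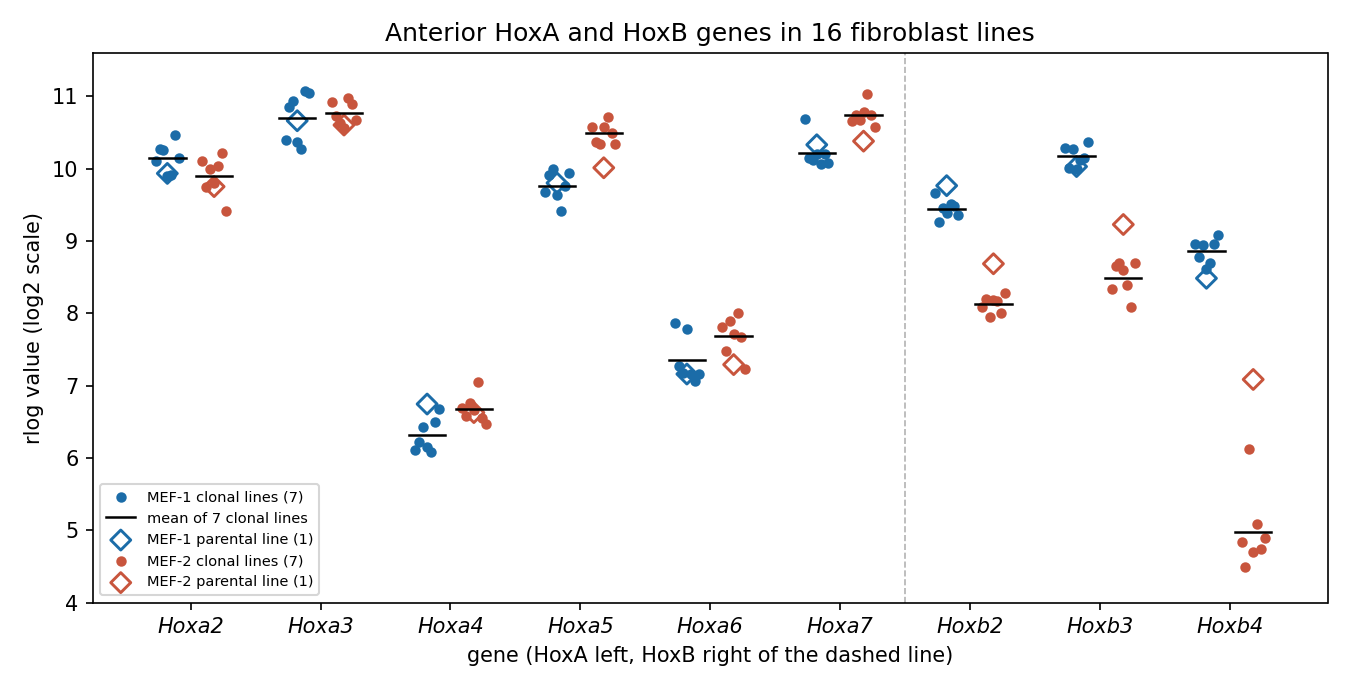
The rlog value (log2 scale, vertical axis) of each of the 9 genes in every line, with points for clonal lines, open diamonds for parental lines and a bar at the mean of 7 clonal lines. The HoxB members of MEF-2 lie below those of MEF-1 without overlap, and Hoxb4 of MEF-2 spreads from 4.49 to 6.13 below its parental line at 7.09.

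Hoxb4, a factor known for the expansion of blood stem cells, ran from 8.62 over a median of 8.95 to 9.08 in the MEF-1 clonal lines. Clones of MEF-2 ran from 4.49 over a median of 4.84 to 6.13. The lowest MEF-1 line was thus well above the highest MEF-2 line, line 3, and the difference amounts to a fold of 14.7 on the rlog scale (adjusted p = 1.59e-09, limma). The value of a gene without reads still moves slightly with the size factor of a library, and Hoxb4 was compared with this level over the clones of MEF-2. Its Pearson's r with it was 0.40 and Spearman's rho −0.07 (n = 7), and its values covered a range of 1.64. Hoxb6, by contrast, had an r of 0.9998 and a range of 0.193 in the same lines, so that its values moved as those of a gene without reads.

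Hoxb3, which acts in the hindbrain and the pharyngeal arches, held values from 10.00 over a median of 10.15 to 10.38 in MEF-1 clones and from 8.08 over 8.60 to 8.69 in MEF-2 clones. The lines did not overlap and the fold was 3.20 (adjusted p = 8.65e-09, limma). Hoxb2, which patterns the hindbrain, ran from 9.26 over 9.45 to 9.66 in MEF-1 and from 7.95 over 8.17 to 8.28 in MEF-2. Its lines did not overlap either, with a fold of 2.49 (adjusted p = 8.46e-09, limma). Of the exon bases of Hoxb3, 52.9% lie opposite the antisense gene Hoxb3os, as do 27.3% of those of Hoxb2, and Hoxb3os was itself lower in MEF-2 by −1.06 ± 0.17 (adjusted p = 0.000110, limma over genes of all biotypes, no overlap of lines). The libraries were made with a kit that keeps the strand. Whether the quantification used it is not given in the sources used here, so reads of Hoxb3 and Hoxb2 cannot be fully told apart from those of Hoxb3os. Hoxb4 shares no exon base with another gene.

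Hoxa5, known for its part in the development of the lung, ran from 9.41 over a median of 9.76 to 9.99 in the MEF-1 clonal lines and from 10.34 over 10.50 to 10.71 in those of MEF-2. It was the only HoxA member without overlap between the sets, with a fold of 1.66 (adjusted p = 1.43e-05, limma). Absence of overlap was found for 4 of the 9 genes (Hoxa5, Hoxb2, Hoxb3 and Hoxb4) and for 25.9% of tested genes. For each of these 4 genes the exact permutation test over lines gave a p of 0.000583 (two-sided, adjusted p over all tested genes = 0.00225), the smallest that 3432 splits allow. Lines without overlap always give this smallest p, so it restates the absence of overlap and adds no support. Hoxa5 shares no exon base with another gene.

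Hoxa7 lies at the posterior end of the HoxA members. It ran from 10.06 over a median of 10.15 to 10.69 in MEF-1 and from 10.57 over 10.74 to 11.03 in MEF-2 (fold 1.44, adjusted p = 0.000322, limma). The sets overlapped through MEF-1 line 1 alone, at 10.69, as the other MEF-1 clonal lines reached no more than 10.21. The antisense gene Hoxaas3 lies opposite 20.4% of the exon bases of Hoxa7. Its own difference was 0.16 (adjusted p = 0.359).

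Hoxa4, a gene of the cervical and upper trunk region, was the least abundant HoxA member. Its values ran from 6.09 over a median of 6.22 to 6.68 in MEF-1 and from 6.47 over 6.66 to 7.05 in MEF-2, so that the sets overlapped (fold 1.29, adjusted p = 0.0233, limma). This call was lost without MEF-2 line 5, the highest line (adjusted p = 0.0533), and with the clone number as a replicate block (adjusted p = 0.0763). It was lost as well without MEF-1 lines 1, 4 and 5 (difference 0.23, adjusted p = 0.210), which hold the lowest chromosome 18 medians. The gene Gm29430 lies opposite 16% of its exon bases.

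Hoxa6, the neighbour of Hoxa5, ran from 7.07 over a median of 7.17 to 7.86 in MEF-1 and from 7.23 over 7.72 to 8.01 in MEF-2. MEF-1 lines 1 and 4, at 7.86 and 7.78, stood above the other 5 clonal lines of MEF-1, which ran from 7.07 to 7.28. Hoxa6 was not called (difference 0.33 ± 0.16, adjusted p = 0.0914, limma), with an interval of 2 SE from 0.011 to 0.65. Without MEF-1 line 1, MEF-1 line 4 or MEF-2 line 7, it passed at an adjusted p of 0.0321, 0.0451 and 0.0405, and without MEF-1 lines 1, 4 and 5 together at 0.0136.

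Hoxa2, which gives the second branchial arch its identity, ran from 9.89 over a median of 10.15 to 10.47 in MEF-1 and from 9.42 over 10.00 to 10.22 in MEF-2. The sets overlapped between 9.89 and 10.22 (difference −0.25 ± 0.12, adjusted p = 0.10, limma), with an interval of 2 SE from −0.49 to −0.00098. Hoxa3, needed for the thymus and parathyroid, ran from 10.27 over 10.86 to 11.07 in MEF-1 and from 10.57 over 10.73 to 10.98 in MEF-2. Here the MEF-2 lines lay within the range of the MEF-1 lines, and the difference of 0.06 ± 0.14 (adjusted p = 0.710, limma) has an interval of 2 SE from −0.21 to 0.33. The read-through gene Gm28308 shares 15.0% of the exon bases of Hoxa2 and 8.0% of those of Hoxa3 on the same strand.

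**Figure D2:**
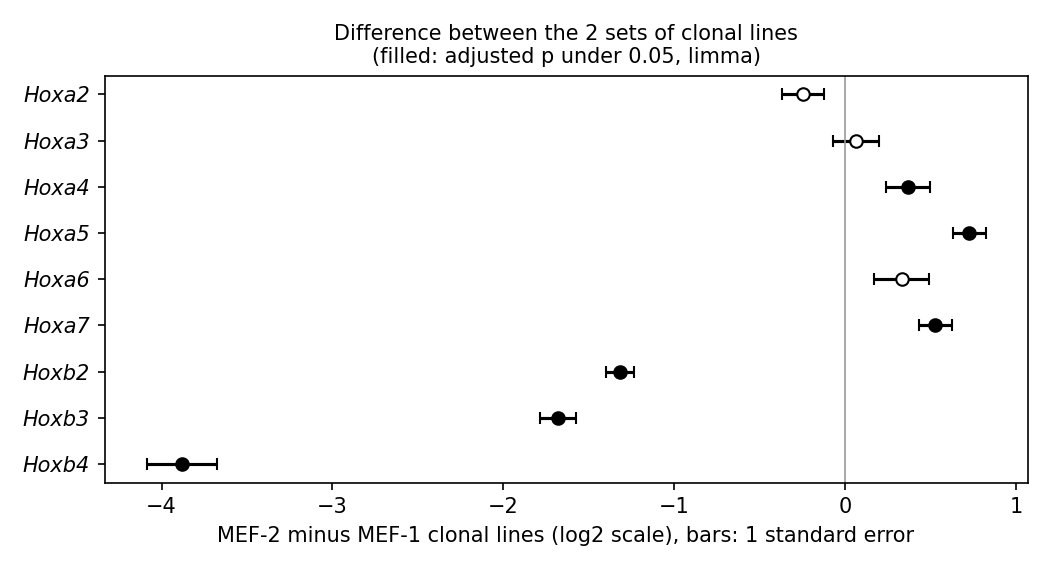
Difference of the mean rlog value between the 7 clones of MEF-2 and the 7 of MEF-1 (log2 scale, horizontal axis) for each gene, with bars of 1 standard error and filled points for an adjusted p under 0.05. The HoxB members lie to the left of 0, from −1.32 to −3.88, and the called HoxA members to the right, from 0.37 to 0.73.

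Each HoxB member has a paralogue among the HoxA members, and the values of these pairs stand side by side as follows. The difference between MEF-2 and MEF-1 was −0.25 for Hoxa2 and −1.32 for Hoxb2. It was 0.06 for Hoxa3 and −1.68 for Hoxb3, and for Hoxa4 and Hoxb4 it was 0.37 and −3.88. In each pair the HoxB gene had the lower value. The size of its difference rose over these 3 genes, from Hoxb2 to Hoxb4. Beyond them it rose and fell, with −2.96 for Hoxb5, −3.71 for Hoxb6, −3.38 for Hoxb7, −4.0 for Hoxb8 and −4.50 for Hoxb9. Hoxb5 was low in MEF-2 clones (2.24 to 2.65) and varied widely between MEF-1 clones (2.76 to 7.83). Its difference is for this reason not directly comparable with those of Hoxb2 to Hoxb4. The difference between paralogues was not tested.

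Compared with the population they came from, the MEF-2 clonal lines held less of all 3 HoxB members. The MEF-2 parental line had 7.09 for Hoxb4, 9.23 for Hoxb3 and 8.69 for Hoxb2, in each case above all 7 of its clonal lines. The mean of the clones minus the parental value was −2.10 for Hoxb4, −0.74 for Hoxb3 and −0.56 for Hoxb2 on the log2 scale. Since a population mixes its cells on the linear scale, the mean of the Hoxb4 values of the clonal lines was also taken before the logarithm. It came to 5.08, again below 7.09. The MEF-2 parental line lay below all of its clonal lines for Hoxa5 (10.01) and Hoxa7 (10.38), and inside their range for Hoxa2, Hoxa3, Hoxa4 and Hoxa6. In all, 5 of the 9 genes had a parental value outside the clonal range in MEF-2, where 34.2% of tested genes did (15.8% above and 18.5% below).

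In MEF-1, 3 of the 9 genes had a parental value outside the clonal range, where 40.9% of tested genes did (20.2% above and 20.8% below). Hoxb4 was lower in the parental line (8.48) than in all of its clonal lines, whose mean was higher by 0.38. Hoxb2 (9.77) and Hoxa4 (6.75) were higher in the parental line than in all clonal lines, whose means differed from it by −0.32 and −0.43. Hoxb2 was thus above its clonal lines in both parental lines, while Hoxb4 was above them in MEF-2 and below them in MEF-1. With 1 library per parental line these are positions without a test. The parental lines were also closer to each other than the clonal sets in Hoxb4 (8.48 and 7.09), Hoxb3 (10.03 and 9.23) and Hoxb2 (9.77 and 8.69).

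Levels of different genes were compared per kilobase of exon, as the rlog value minus log2 of the length of the merged exons. In the MEF-1 clonal lines Hoxa2 was highest (9.32 ± 0.21, SD, n = 7), followed by Hoxa5 (8.85 ± 0.20), Hoxa7 (8.69 ± 0.22), Hoxa3 (8.12 ± 0.35), Hoxb3 (8.08 ± 0.14), Hoxb2 (7.64 ± 0.13), Hoxa6 (7.55 ± 0.33), Hoxb4 (7.50 ± 0.17) and Hoxa4 (5.64 ± 0.22). Of these neighbours, the lines of Hoxa7 and Hoxa3, of Hoxb3 and Hoxb2, and of Hoxb4 and Hoxa4 did not overlap, while all other neighbours did. In the MEF-2 clonal lines the order began with Hoxa5 (9.58 ± 0.14), Hoxa7 (9.22 ± 0.15), Hoxa2 (9.08 ± 0.27), Hoxa3 (8.18 ± 0.16) and Hoxa6 (7.88 ± 0.26). It ended with Hoxb3 (6.40 ± 0.23), Hoxb2 (6.32 ± 0.11), Hoxa4 (6.01 ± 0.19) and Hoxb4 (3.62 ± 0.54). There the steps from Hoxa2 to Hoxa3, from Hoxa6 to Hoxb3 and from Hoxa4 to Hoxb4 were without overlap. The order depends on the length taken. With the longest transcript of each gene, 6 of 9 genes kept their place in MEF-1 and 5 in MEF-2, and with the median transcript 4 and 3 did.

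Between the clonal lines of a set, the SD of the 9 genes ran from 0.13 (Hoxb2) to 0.35 (Hoxa3) in MEF-1 and from 0.11 (Hoxb2) to 0.54 (Hoxb4) in MEF-2, where the medians over tested genes were 0.20 and 0.16. No gene passed the test of a difference in spread between the sets (exact permutation test of the mean absolute deviation from the median, two-sided, adjusted p over the 9 genes = 0.912 for each). The gap was largest for Hoxb4 (0.128 in MEF-1, 0.312 in MEF-2, exact p = 0.387), followed by Hoxa3 in the opposite direction (0.289 in MEF-1, 0.131 in MEF-2, exact p = 0.117). Hoxa3 passed when the standard deviation took the place of this measure, or when deviations were taken from the mean of the set (adjusted p = 0.0210 for both).

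Hoxa3 is the member in which the MEF-1 clonal lines fell furthest apart. Lines 1, 4 and 5 held 10.39, 10.37 and 10.27, and lines 2, 3, 6 and 7 held 10.86, 10.94, 11.07 and 11.05. The same 3 lines were the lowest of MEF-1 in Hoxa4 (6.12, 6.16 and 6.09) and in Hoxa5 (9.68, 9.64 and 9.41). In Hoxa2 they were the lowest clonal lines of MEF-1 as well (10.11, 9.89 and 9.91), with line 7 next at 10.15. Lines 1, 4 and 5 were also the lines with the lowest median over the genes of chromosome 18, at −0.48, −0.51 and −0.44 on the log2 scale, against 0.04 to 0.16 in the other 4 clonal lines of MEF-1 and 0.13 to 0.17 in those of MEF-2. Medians of the chromosomes that carry the members stayed between −0.05 and 0.06 (chromosome 6) and between −0.11 and 0.05 (chromosome 11) over all lines. The part of the chromosome 18 difference in these values was not tested. Without the 3 lines, 7 of the 9 genes were called. The differences of Hoxb2 (−1.26), Hoxb3 (−1.71), Hoxb4 (−3.96), Hoxa5 (0.59) and Hoxa7 (0.61) stayed past the threshold, Hoxa2 (−0.38, adjusted p = 0.0355) came to pass it, and Hoxa3 changed sign (−0.21, adjusted p = 0.0692).

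**Figure D3:**
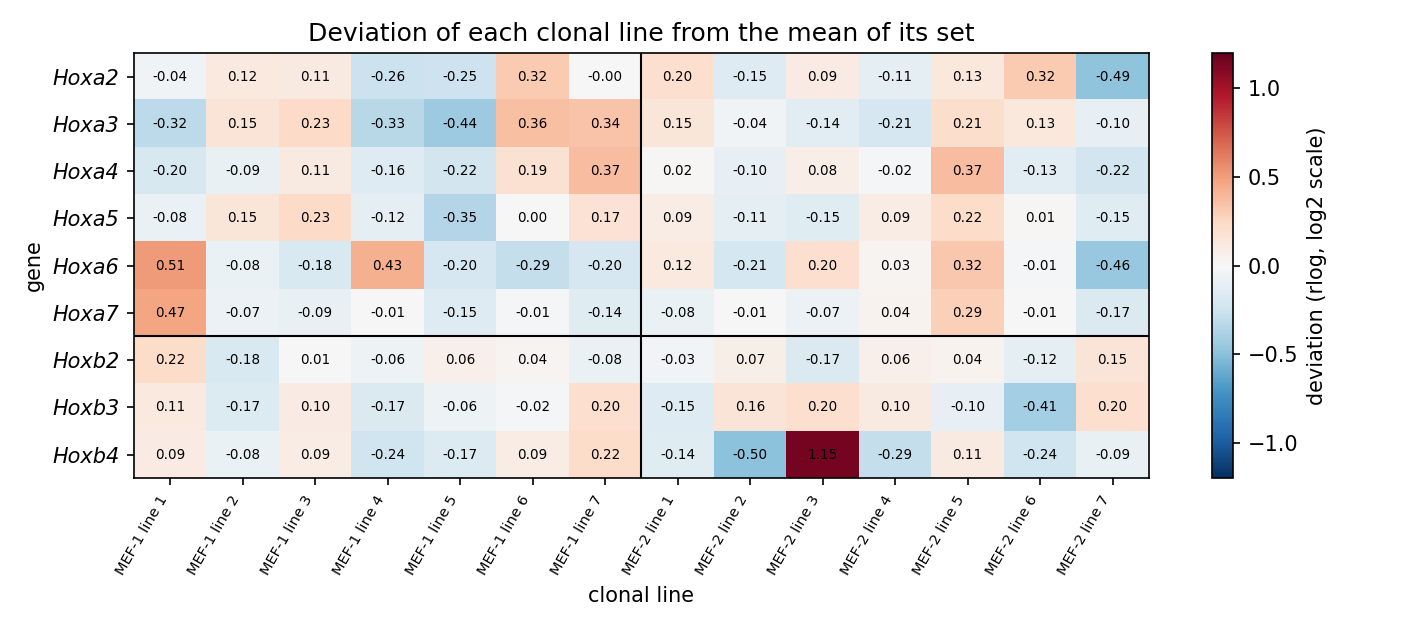
Deviation of each clonal line from the mean of its set (rlog, log2 scale, colour and printed value) for the 9 genes in rows and the 14 clonal lines in columns. Hoxa3 is low in MEF-1 lines 1, 4 and 5, Hoxa6 is high in MEF-1 lines 1 and 4, and Hoxb4 is high in MEF-2 line 3.

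Over the deviations of the 14 clonal lines from the mean of their set, all pairs among Hoxa2, Hoxa3, Hoxa4 and Hoxa5 had a positive Pearson's r, from 0.51 to 0.77. It was 0.77 for Hoxa3 and Hoxa5, 0.74 for Hoxa3 and Hoxa4, 0.69 for Hoxa4 and Hoxa5, and 0.67 for Hoxa2 and Hoxa3. Hoxa6 and Hoxa7 had an r of 0.72, while Hoxa3 with Hoxa6 had the lowest value within the cluster (−0.35). Within MEF-1 and MEF-2 taken alone, Hoxa3 with Hoxa6 gave −0.64 and 0.41, so this value does not hold in both sets. Every pair of Hoxa6 or Hoxa7 with Hoxa2, Hoxa3, Hoxa4 or Hoxa5 was likewise negative in MEF-1 and positive in MEF-2. Examples are Hoxa4 with Hoxa6 (−0.59 and 0.86) and Hoxa2 with Hoxa7 (−0.0071 and 0.38). The other HoxA pairs were positive in both sets. The median over 15 HoxA pairs was 0.17, and over 18 pairs of a HoxA with a HoxB gene −0.05. The 3 HoxB pairs ran from −0.35 (Hoxb2 with Hoxb4) to 0.39 (Hoxb2 with Hoxb3), and Hoxb2 with Hoxb4 also differed in sign between the sets (0.21 in MEF-1, −0.62 in MEF-2). These values describe 14 lines that share their 2 parental lines and the size factors of 1 table, and the genes of a pair may share reads where they overlap.

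Among 13122 genes whose average passed the 40th percentile, none of the 3 genes most like each member over the 14 deviations was a Hox gene. The values below are the highest of 13122 over only 14 lines. High values also arise by this selection, and none was tested. The genes most like Hoxb2 were Tuba4a (r = 0.93), Bicd2 (0.92) and Nrf1 (0.90). For Hoxb3 they were Coq2 (0.89), Tvp23a (0.83) and Kyat3 (0.83), and for Hoxb4 Vps51 (0.88), Cdc14a (0.86) and Csmd1 (0.85). Those of Hoxa2 were Efnb2, Cables1 and Zscan21 (0.91 each), and those of Hoxa3 were Ndst1 (0.93), Adgrg1 (0.91) and Mtpap (0.91). Hoxa4 was most like Abca2 (0.87), Rybp (0.84) and Zfp516 (0.84), and Hoxa5 most like Dcp2 (0.84), Setbp1 (0.83) and Pitpnm2 (0.82). Of these 12 genes named for Hoxa2 to Hoxa5, Cables1, Ndst1, Mtpap, Zfp516, Dcp2 and Setbp1 lie on chromosome 18. For Hoxa6 the genes were Ptpru (0.89), Tmem140 (0.89) and Hacl1 (0.86), and for Hoxa7 Sh2d3c (0.84), Aloxe3 (0.82) and Nyx (0.82).

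The clonal lines of MEF-1 spread more widely in Hoxa9, Hoxa10 and Hoxb9, posterior to the members, than in any member. Beyond Hoxa7, Hoxa9 ran from 4.06 to 8.66 and Hoxa10 from 4.02 to 9.79 in MEF-1 clones, and from 2.60 to 3.34 and 2.98 to 3.91 in those of MEF-2. Beyond Hoxb4, Hoxb9 ran from 4.34 to 12.87 in MEF-1 and from 3.69 to 4.31 in MEF-2. MEF-1 lines 1, 4 and 5 held the highest Hoxb9 values (12.49, 12.14 and 12.87), while their Hoxb4 values (8.96, 8.62 and 8.70) lay among those of the other MEF-1 clonal lines (8.78 to 9.08) or just below them. Of the other HoxA genes, 2 of 5 were called, Hoxa9 (−2.80) and Hoxa10 (−3.24), both lower in MEF-2. Over all tested genes, 56.1% were called and 28.6% were called lower in MEF-2. All 6 tested of 7 other HoxB genes were lower in MEF-2, namely Hoxb5 (−2.96), Hoxb6 (−3.71), Hoxb7 (−3.38), Hoxb8 (−4.0), Hoxb9 (−4.50) and Hoxb13 (−0.37). These are differences of means over MEF-1 clonal lines that differ widely. In MEF-2 clones Hoxb6 moved with the level of a gene without reads (Pearson's r = 0.9998), so its difference is taken against that level. Hoxb5, Hoxb7, Hoxb8 and Hoxb9 were not compared with it. Hoxb7 held 8.32 to 9.04 in MEF-1 lines 1, 4 and 5. In MEF-1 line 6 it held 2.53, inside the MEF-2 clonal range of 2.41 to 2.63. Hoxb13 stayed between −0.12 and 0.78 in all lines. Its average (0.055) passed the filter of 0 through the MEF-1 clonal lines (mean 0.25), as the MEF-2 clonal lines held −0.12 to −0.11. The filter thus favoured its call as lower in MEF-2, and this call adds no support to the count of 6. Of 18 HoxC and HoxD genes, 7 were listed at 0 in all lines and only Hoxd8 had an average above 0 (−1.67, adjusted p = 0.000197, limma).

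**Figure D4:**
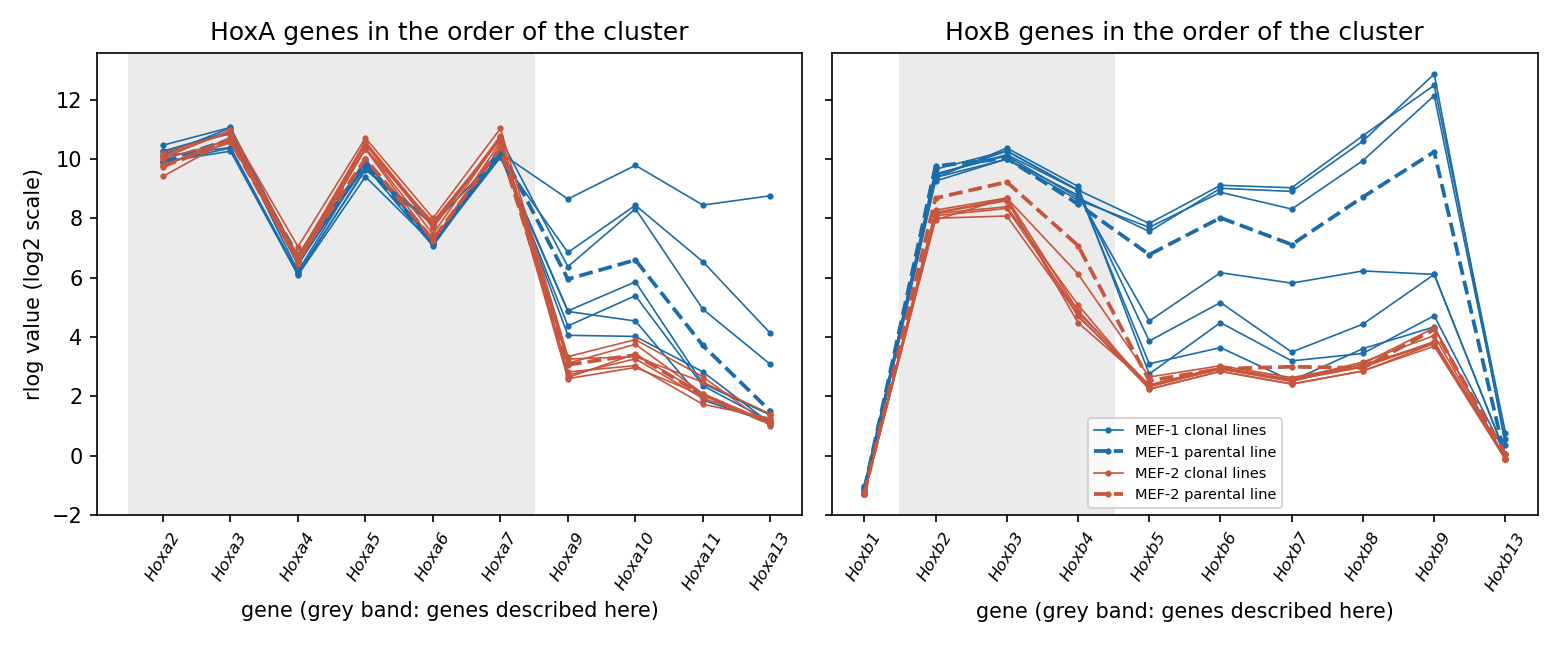
The rlog value (log2 scale, not per length, vertical axis) of the HoxA (left) and HoxB (right) genes in the order of the cluster, without those not reported here, 1 line per cell line, with the genes described here in the grey band. Within the band the clonal lines of a set span up to 0.80 for a gene (Hoxa2 in MEF-2, Hoxa3 in MEF-1), except for Hoxb4 in MEF-2 (1.64). Posterior to the band the MEF-1 clonal lines spread further in most genes, for Hoxb9 from 4.34 to 12.87.

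Other genes annotated within the clusters were mostly non-coding. Hotairm1, an antisense gene of the HoxA cluster, was lower in MEF-2 (−0.60 ± 0.17, adjusted p = 0.0101, limma over genes of all biotypes), as were Gm11536 (−0.50, adjusted p = 0.000948), 5730596B20Rik (−0.48, adjusted p = 0.0338), Gm27861 (−0.35, adjusted p = 0.00752) and Hoxa11os (−1.97, adjusted p = 0.0395). Hoxaas2 (−0.24, adjusted p = 0.162), Gm15050 (−0.27, adjusted p = 0.0718) and Gm53 (−3.26, adjusted p = 0.0553) did not pass. Hoxaas2 lies opposite 8.4% of the exon bases of Hoxa3.

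Genes that are known to act on Hox genes or with Hox proteins were counted from lists, to be read against 56.1% called over all tested genes (27.5% higher and 28.6% lower in MEF-2). Of 9 TALE cofactors, which bind DNA together with Hox proteins, 4 were higher (among them Meis2 by 0.37, Pbx4 by 0.37 and Pknox1 by 0.16), 1 was lower and 4 were not called, so that 5 of 9 were called, near that background, and 4 of 9 (3 higher) with each line centred by its autosomal median. The lower gene was Pknox2, at 10.79 to 11.36 in MEF-1 clones and 7.38 to 10.29 in MEF-2 clones (−2.29 ± 0.35, adjusted p = 5.84e-05, limma). A list of 17 genes held inducers of Hox genes and enzymes that break down retinoic acid. Its counts thus carry no common direction of effect. Of these genes, 9 were tested, 2 were higher, 3 were lower and 4 were not called, which is again near the background. Among these, the retinoid receptors Rxra (−0.92) and Rarg (−0.26) were lower, and Cyp26b1 (1.28), which degrades retinoic acid, and the growth factor Gdf11 (0.26) were higher.

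Among 16 Polycomb genes, which keep Hox genes off, 6 were higher (Cbx2 by 0.99, Ezh2 by 0.97, Jarid2 by 0.45, Suz12 by 0.42, Rnf2 by 0.27 and Eed by 0.20), 4 were lower (among them Cbx7, Ezh1 by −0.73 and Kdm2b by −0.54) and 6 were not called, a share of calls near the background of 56.1%. Cbx7 ran from 8.13 to 9.53 in MEF-1 clones and from 5.07 to 6.48 in MEF-2 clones (−3.07 ± 0.26, adjusted p = 1.70e-07, limma), and the parental lines held 6.79 and 6.26. Of 9 Trithorax-type activators, 4 were higher, 1 was lower and 4 were not called, likewise near the background, with differences of the called genes between −0.28 (Men1) and 0.44 (Ash2l). Among 6 genes that lie downstream of Hoxa2 in the branchial arches, 5 were tested. Six2 was higher (1.10 ± 0.43, adjusted p = 0.0414, limma), Meox1 (−1.59), Lmx1b (−0.90) and Nkx3-2 (−0.64) were lower, and 1 was not called. Lmx1b was weak, at 1.17 to 2.60 over all lines. Hoxa2 itself was not called, and a link of these genes to it was not tested. The median difference of the lists was 0.11 for the cofactors, −0.03 for the list with the inducers, 0.003 for Polycomb, 0.18 for Trithorax and −0.64 for the genes downstream of Hoxa2, against −0.004 over all tested genes.

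The lines held the markers of fibroblasts. Of 12 fibroblast markers, 11 lay above the 40th percentile of protein-coding genes (3.75) in all lines, and the exception was Thy1, at 2.72 to 3.43 in MEF-1 clones and 3.42 to 8.02 in MEF-2 clones. Summed over the list, rlog values ran from 183.0 to 185.6 in MEF-1 and from 180.3 to 188.3 in MEF-2. Of the other markers, 1 of 4 epithelial, 1 of 4 endothelial, 2 of 4 blood, 1 of 4 neural and 0 of 3 muscle genes lay above that level in all lines. Summed values in clones of MEF-1 and of MEF-2 ran from 7.57 to 10.9 and 7.60 to 9.34 (epithelial), 4.25 to 6.08 and 4.66 to 7.27 (endothelial), 11.8 to 13.0 and 12.3 to 16 (blood), 6.21 to 7.65 and 8.09 to 9.45 (neural) and −1.86 to −1.29 and −1.70 to −0.94 (muscle). Krt5, Krt14, Tie1, Sox10, Elavl4, Myod1 and Myog had an average below 0. Of the markers called between the sets, Thy1 (2.59), Tubb3 (1.90) and Csf1r (1.36) were higher in MEF-2, and Pdgfra (−1.85), Col3a1 (−0.60) and Elavl3 (−0.22) were lower. Their part in the differences of the Hox genes was not tested.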

How the data were processed

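Total RNA of the 16 lines was depleted of ribosomal RNA and sequenced from directional libraries. According to the submitters' processing notes and the paper's methods, the authors trimmed reads with Trim Galore 0.6.0, quantified transcripts with Salmon 1.5.2 on mm10, and deposited the log2 output of the rlog transformation of DESeq2 1.24.0. The depth per line is not given in the sources used here, so no counting interval or floor is given. Libraries were mapped to lines by their labels (0 names without a sample).

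Identifiers were matched to GENCODE mouse release 21 (Ensembl release 96, GRCm38), with 54200 of 54453 genes found. Values were used as deposited, without a pseudocount. Protein-coding genes with an average above 0 (15285, among them all 9 members) were fitted with limma 3.58.1 in R 4.3.3 (trended variance prior, 7 against 7 clonal lines, no covariate), and called at a Benjamini-Hochberg adjusted p under 0.05. Genes of other biotypes were tested in a fit over all genes with an average above 0. Single values and the spread were tested by exact permutation over the lines. The scripts were tested on simulated data. Alternatives covered filters, variance priors, centring, a replicate block, added parental lines and leaving out each line.

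The 9 members, the lists and the tests were chosen with earlier results of these data known. The other genes named are the 20 called list genes with the largest difference, the 3 genes most like each member, and the expressed genes that lie within the HoxA and HoxB clusters. Cofactors, inducers, Polycomb and Trithorax genes of smaller difference were added after their values were seen, as were Hoxb13 and the named markers. Clone numbers name different cells in MEF-1 and MEF-2. Protein sequences were not used here, and a few genes of the lists are not reported here. Python 3.11.15 with matplotlib 3.10.9, scipy 1.17.1, numpy 2.4.6 and pandas 2.3.3 was used for the remaining steps.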

Additional observations from a re-analysis of the deposited data

Results flagged for a closer look

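Single clonal lines stood apart from their set in 2 of 18 sets of 7 values (9 genes in MEF-1 and MEF-2), where chance gives about 1 in 20, or 0.9. Hoxa7 in MEF-1 line 1 was 10.69, with the next line at 10.21 and a gap of 0.770 of the range of the set. Hoxb4 in MEF-2 line 3 was 6.13, with the next line at 5.09 and a gap of 0.634 of the range. The limit for 7 values is 0.568.

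Hoxb4 moved in opposite directions from the parental to the clonal lines. In MEF-1 all 7 clonal lines were above the parental line, with a mean difference of 0.38, and in MEF-2 all 7 were below it, with a mean difference of −2.10. With 1 library per parental line this difference between MEF-1 and MEF-2 was not tested.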

How the results depend on the processing

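The number of the 9 genes called was 6 under all alternatives but 3, single lines aside. It was 5 with the replicate block, and 7 both with values centred by the chromosome median of the line and without MEF-1 lines 1, 4 and 5, an alternative chosen after seeing the data. Without each clonal line in turn it ran from 5 to 7. The count over all tested genes was 8226 with the replicate block, 7733 without the 3 lines, 10297 with genes of all biotypes and 8026 to 8673 without single lines. Same-numbered lines had correlations of −0.133 to 0.200, above 0.1 in 2 of 7 pairs, and 1 of 7 MEF-1 and 4 of 7 MEF-2 lines correlated best with their own number. As clone numbers name different cells and not every pair passed 0.1, the lines were not taken as paired.

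Hoxa5, Hoxa7, Hoxb2, Hoxb3 and Hoxb4 kept their direction and their call under all 24 alternatives run for each (Hoxb4 from −4.07 to −3.57, Hoxa5 from 0.59 to 0.78). Hoxa3 changed sign without MEF-1 line 5, as its differences without single lines ran from −0.0093 to 0.12, and without MEF-1 lines 1, 4 and 5 (−0.21). Hoxa6 also passed with centring by chromosome (adjusted p = 0.0455, limma). The differences in spread (MEF-2 minus MEF-1) changed sign for Hoxb2 with deviations from the mean of the set (0.00026), chosen after seeing the data, and without single lines, where they ran from −0.022 to 0.075 for Hoxa2, −0.080 to 0.047 for Hoxa6, −0.061 to 0.043 for Hoxa7 and −0.026 to 0.015 for Hoxb2. Hoxa3 passed the spread test without MEF-1 line 2, 3, 6 or 7 (adjusted p from 0.0105 to 0.0262, exact permutation test). The causes were not tested. Parental values outside the clonal range numbered 3 to 4 in MEF-1 and 5 to 6 in MEF-2 without single clonal lines.

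The number of reads is unknown, and shrinkage understates differences of the weakest genes, Hoxa4 and, in MEF-2, Hoxb4. Each set goes back to 1 embryo, and the clonal lines of a set are replicates of that line only.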
